A study of Mus musculus with 20 samples.

Results

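The VEGF and angiopoietin genes control the growth, survival and permeability of vessels, and 10 of them were followed in the irradiated mouse aorta. They were taken by gene symbol from a table of 21078 genes. The group held the 4 ligands Vegfa, Vegfb, Vegfc and Pgf, the receptors Flt1 and Kdr, the coreceptors Nrp1 and Nrp2, and the angiopoietins Angpt1 and Angpt2. Thoracic aortas came from 20 male wildtype C57BL/6 mice of 10 to 12 weeks, fed regular chow, 10 exposed to whole-body proton radiation and 10 to whole-body gamma radiation from a caesium source. Each type had 1 mouse at each of 0, 5, 10, 25, 50, 75, 100, 125, 150 and 200 cGy, and the mice were killed 4 h later. The mouse at 0 cGy in each type was the unexposed control, so no dose was repeated within a type. Dose responses were therefore read as trends over the 10 mice of a type. In the slope fits both types shared their estimate of the spread, taken from all 20 mice around the fitted lines. Differences between mice and departures from a straight dose trend cannot be told apart in that spread. Polyadenylated RNA was sequenced, and read counts on the sense strand summed to between 6051657 and 6058006 per mouse. A floor of 3 counts was set for detection, covering counting error only, and every gene of the group lay above it in every mouse.

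VEGF ligands are secreted proteins that bind receptor tyrosine kinases on endothelial cells. Kdr carries most of the growth signal of Vegfa, while Flt1 binds Vegfa, Vegfb and Pgf and its soluble form acts as a decoy. Vegfc signals mainly through Flt4 and is best known for the growth of lymphatic vessels. Neuropilins bind both VEGF ligands and semaphorins and lack a kinase of their own. Angpt1 activates the receptor Tek and stabilises vessels, and Angpt2, stored in endothelial cells, opposes it in many settings. Transcription of Vegfa is raised by low oxygen through a short DNA element bound by HIF factors, whereas radiation acts on many genes through p53. RNA of the whole vessel was measured, so fewer cells of a type and less RNA per cell cannot be told apart.

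The promoters of Vegfa, Kdr and Flt1 are shown because the levels of these genes varied together across mice, and that of Cdkn1a, an inhibitor of the cell cycle and a p53 target that rose with dose after both radiation types, is shown for contrast. Sequences are the 250 bases before the first RefSeq start (GRCm38.p6), each matched to a single place in the mm9 genome. They run 5′ to 3′ on the gene's strand and cover chr17:46169327-46169576 (minus strand), chr5:76374481-76374730 (minus), chr5:148537588-148537837 (minus) and chr17:29227674-29227923 (plus). Capitals mark the hypoxia core, ACGTG or GCGTG on either strand, in Vegfa, Kdr and Flt1. In Cdkn1a they mark each half-site of the p53 motif, written RRRCWWGYYY. There R stands for A or G, W for A or T and Y for C or T.
Vegfa: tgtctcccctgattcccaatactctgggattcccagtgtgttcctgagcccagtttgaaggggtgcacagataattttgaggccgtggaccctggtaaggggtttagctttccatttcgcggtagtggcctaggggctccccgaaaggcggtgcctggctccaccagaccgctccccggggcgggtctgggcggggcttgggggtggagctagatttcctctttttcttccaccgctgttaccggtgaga
Kdr: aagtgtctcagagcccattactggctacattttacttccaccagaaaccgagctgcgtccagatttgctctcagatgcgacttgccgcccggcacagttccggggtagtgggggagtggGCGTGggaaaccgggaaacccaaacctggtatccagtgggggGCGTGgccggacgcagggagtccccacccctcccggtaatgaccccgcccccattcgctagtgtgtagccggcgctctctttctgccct
Flt1: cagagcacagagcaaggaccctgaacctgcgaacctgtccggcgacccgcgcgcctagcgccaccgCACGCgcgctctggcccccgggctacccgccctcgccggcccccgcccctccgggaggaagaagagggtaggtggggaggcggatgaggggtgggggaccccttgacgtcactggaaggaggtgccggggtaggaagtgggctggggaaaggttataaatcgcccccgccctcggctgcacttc
Cdkn1a: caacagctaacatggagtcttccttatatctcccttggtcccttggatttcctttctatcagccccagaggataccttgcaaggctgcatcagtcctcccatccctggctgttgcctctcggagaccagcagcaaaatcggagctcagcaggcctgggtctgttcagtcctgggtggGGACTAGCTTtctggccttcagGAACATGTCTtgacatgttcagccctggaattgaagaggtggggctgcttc
The Vegfa window shown held no hypoxia core (a window at a second RefSeq start, not shown, held 2), the Kdr window held cores 131 and 89 bases before the start, and the Flt1 window held 1 at 184 bases. Of the 10 genes, 8 matched entries of the promoter table, and Angpt1 and Angpt2 did not. These 8 genes had 10 starts, and a hypoxia core lay in 7 of the 10 windows and in 38.6% of all 32851 promoter windows. The GC box (GGGCGG, either strand) lay in 9 of the 10 and in 32.7% of all windows. The TATA box (TATAAA, either strand) was found in 1 of the 10 windows, that of Flt1, 31 bases before its start, and in 12.4% of all windows. The p53 half-site was found in 0 of the 10 windows, in 7.13% of all windows and at 73 and 51 bases before the Cdkn1a start shown. A window at a second Cdkn1a start, not shown, held 0 p53 half-sites, 1 hypoxia core and 2 GC boxes. The 10 windows held 59.2% to 76.4% G and C, and the shares over all windows were not matched for base composition. Such matches are letters in a window and not measured binding sites.

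Per exon length, the group fell into a high and a low set. Vegfa, at chr17:46153942-46169326, had the highest mean level, 19.5 ± 11.3 CPM per kilobase of exon (SD, n = 20 mice), where CPM is the count scaled to a common library size. Vegfb (chr19:7056963-7062141), whose product is linked to the handling of fatty acids, followed with 17.5 ± 7.60. Nrp1 (chr8:130882973-131029362) lay at 17 ± 5.83 and Angpt2 (chr8:18690263-18741562) at 15.5 ± 2.48. These 4 levels did not separate beyond their spread, as Vegfa exceeded Vegfb in 13, Vegfb exceeded Nrp1 in 11 and Nrp1 exceeded Angpt2 in 12 of 20 mice. Angpt2 exceeded the next gene, Flt1 (chr5:148373180-148537587), in 20 of 20 mice. Flt1 had 3.50 ± 0.81 CPM per kilobase, Vegfc (chr8:55162886-55271808) 3.10 ± 0.72 and Pgf (chr12:86507589-86518246) 2.43 ± 0.70. Kdr (chr5:76328852-76374483), at 2.17 ± 2.47, Nrp2 (chr1:62749859-62865269), at 1.18 ± 0.81, and Angpt1 (chr15:42256273-42508523), at 1.07 ± 1.31, closed the order. From Flt1 down, each gene exceeded the next in 13 to 16 of 20 mice, so these neighbours overlapped as well. Levels summed over isoforms, so the soluble and membrane forms of Flt1 were not separated. Angpt2 overlaps Mcph1 and Angpt1 overlaps the noncoding Gm17473, both on the opposite strand, which the strand-specific counts keep apart, and Nrp1 contains Mir1903 on its own strand.

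**Figure D1:**
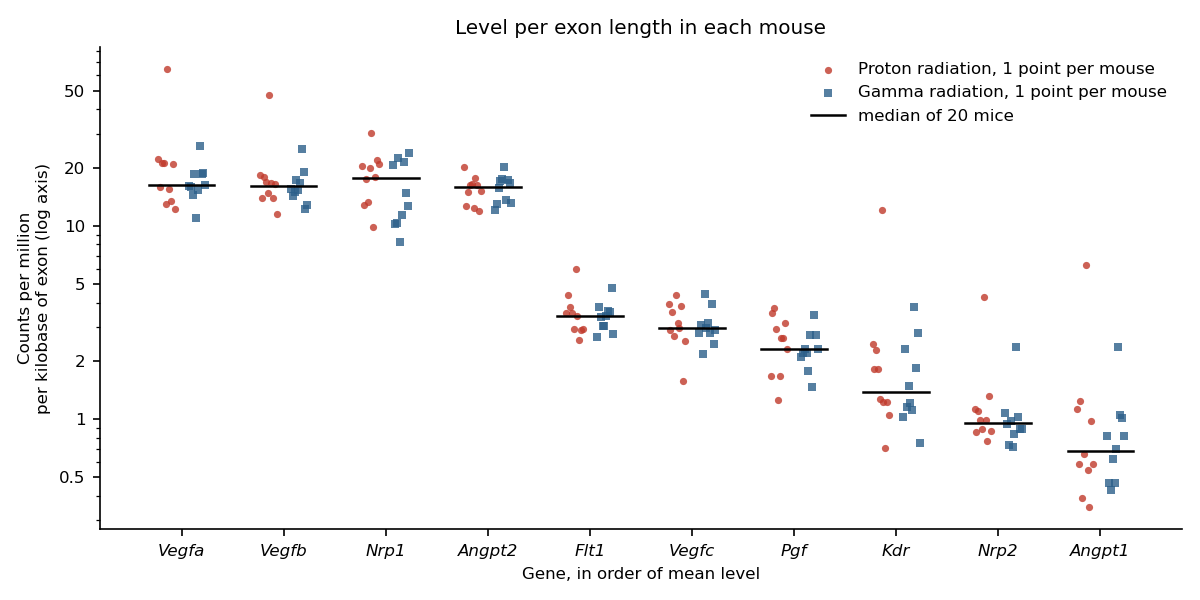
Level of each gene in CPM per kilobase of exon (log axis), 1 point per mouse (circles proton, squares gamma) with the median of 20 mice as a bar. Angpt2 and the 3 genes above it lie over Flt1 and the rest, and the highest point of 7 of the 10 genes is a proton mouse (the one at 75 cGy).

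The VEGF ligands showed no steady change with dose after either radiation type. Vegfa counts ran from 317 at 200 cGy through a median of 477.0 to 1684 at 75 cGy in proton mice, and from 284 at 50 cGy through 420.5 to 674 at 100 cGy in gamma mice. Vegfb counts had a lowest value of 112, a median of 161.0 and a highest value of 460 in proton mice, and 118, 149.5 and 242 in gamma mice. Both ligands peaked in the same mice, at 75 cGy after proton and at 100 cGy after gamma radiation, and the remaining mice of the types overlapped. At 0 cGy the Vegfa count was 575 in the proton and 417 in the gamma control, so unexposed mice differed from each other as well. Vegfc counts were 18 to 50 (median 35.0) in proton and 25 to 51 (median 33.5) in gamma mice. Pgf, the placental growth factor, had counts of 12 to 36 (median 25.0) in proton and 14 to 33 (median 21.5) in gamma mice. Neither gene shared the peaks of Vegfa. The SD of Pgf over 20 mice, 6.67 counts, was 1.38 times the 4.83 counts that counting error alone would give at its mean, and that of Vegfc was 1.39 times, so little of their spread could be resolved at this depth.

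The receptors had their highest counts in the same proton mouse. Kdr counts ran from 31 at 125 cGy through a median of 68.0 to 534 at 75 cGy in proton mice and from 33 at 200 cGy through 59.0 to 168 at 100 cGy in gamma mice. Flt1 counts had a lowest value of 179, a median of 244.0 and a highest value of 420 in proton mice, and 186, 238.0 and 335 in gamma mice, where the highest stood at 150 cGy. Apart from the mouse at 75 cGy, the highest Kdr counts of proton mice were 108, at 0 cGy, and 100, at 10 cGy, and the lowest were 31, at 125 cGy, and 46, at 200 cGy. In gamma mice high and low Kdr counts were mixed over the doses. Flt1 behaved likewise, with 308 counts at 5 cGy and 204 at 200 cGy in proton mice.

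The coreceptors differed from each other in how they varied. Nrp2 counts were 44 to 76 in 9 proton mice and 246 in the mouse at 75 cGy, and 41 to 62 in 9 gamma mice and 136 in the mouse at 100 cGy. Without these 2 mice the SD of Nrp2, 8.79 counts, was 1.19 times counting error, the lowest ratio of the group. Nrp1 counts had a lowest value of 353, a median of 672.5 and a highest value of 1077 in proton mice, and 293, 489.5 and 853 in gamma mice. Its spread did not rest on the same 2 mice, since without them the SD was still 7.58 times counting error, the highest ratio of the group.

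The angiopoietins moved apart. Angpt1 counts were 9 to 32 in 9 proton mice and 162 in the mouse at 75 cGy, and 11 to 27 in 9 gamma mice and 61 in the mouse at 100 cGy. Angpt2 had its lowest proton count, 266, at 150 cGy, a median of 350.0 and its highest, 448, at 0 cGy, and in gamma mice the lowest count, 270, was that of the control, the median was 361.0 and the highest, 448, stood at 75 cGy. The coefficient of variation over 20 mice was 16% for Angpt2 and 122% for Angpt1. Without the 2 mice at proton 75 cGy and gamma 100 cGy it was 15.5% and 38.2%, and that of Vegfb, 13.6%, was then lower than that of Angpt2.

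**Figure D2:**
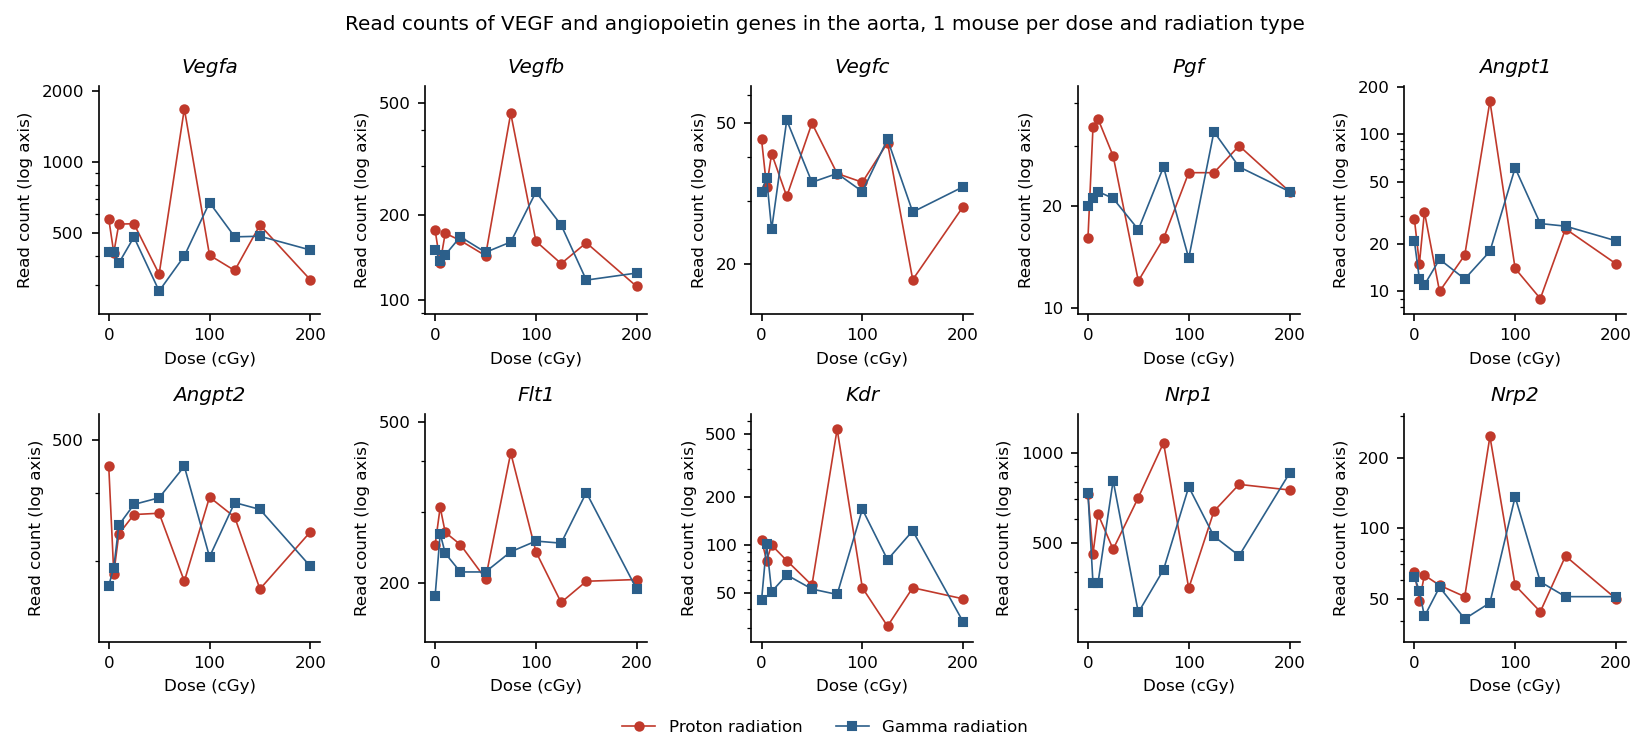
Read counts (log axis) against dose in cGy for each gene, 1 mouse per point, in proton mice (circles) and gamma mice (squares). Vegfa, Vegfb, Angpt1, Kdr and Nrp2 peak at proton 75 cGy and at gamma 100 cGy, and no panel shows a steady rise or fall.

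None of the 10 genes was called for a change with dose by the edgeR quasi-likelihood test, which fitted a log2 slope per 100 cGy in each radiation type. Over the 13124 genes tested, the same test called 1.6% rising and 0.16% falling after proton radiation and 5.44% rising and 2.21% falling after gamma radiation, at an adjusted p of 0.1. In proton mice 0 of the 10 were called and 0 had an unadjusted p under 0.05, as against 1745 of all genes. In gamma mice 0 of the 10 were called and 0 had an unadjusted p under 0.05, as against 2413 of all genes. All 20 intervals of the slopes held 0.

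The estimates nevertheless leaned in opposite directions. After proton radiation 8 of the 10 slopes lay below 0, with a median of -0.17 against 0.0018 over all genes. After gamma radiation 8 of the 10 lay above 0, with a median of 0.13 against 0.013. The 10 genes were measured in the same mice and vary together, so these counts are not 10 separate observations. The fit was repeated over 0 to 125 cGy, without the 2 libraries at the highest doses of each type. There 7 of 10 proton slopes and 10 of 10 gamma slopes lay above 0. That range keeps the proton mouse at 75 cGy, which had the highest counts for most of the group. The restricted fit therefore cannot tell whether the opposite lean rests on the highest doses. Leaving out the proton mouse at the highest dose raised the proton slopes of Vegfa, Vegfb and Angpt1 above 0, to 0.06, 0.09 and 0.27. The proton slope of Nrp2 rose to 0.31. Those of Kdr and Angpt2 stayed below 0, at -0.17 and -0.15, as did those of Flt1 and Vegfc. The number of proton slopes below 0 thus depended on that mouse. Over all doses without the proton mouse at 75 cGy, 9 of 10 proton slopes lay below 0 and 8 of 10 gamma slopes above it. Markers of fat leaned the same way as the group. The median proton and gamma slopes were -0.19 and 0.45 over 8 brown fat markers and -0.54 and 0.30 over 6 white fat markers, with 0 of them called. With a brown fat score as a covariate, 6 of 10 proton slopes lay below 0 and 5 of 10 gamma slopes above it. Flt1 and Vegfc had the lowest p among proton slopes, and Kdr the steepest estimate. Kdr had a proton slope of -0.53 ± 0.63 (SE; 95% interval -1.85 to 0.78; adjusted p = 0.814) and Flt1 one of -0.24 ± 0.14 (-0.54 to 0.06; adjusted p = 0.522). The slope of Vegfc was -0.27 ± 0.17 (-0.62 to 0.08; adjusted p = 0.544).

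The width of the intervals decided what could be seen. At 200 cGy relative to 0 cGy, the fitted proton fold of Angpt2 was 0.897 (95% interval 0.651 to 1.24) and its gamma fold 1.03 (0.734 to 1.44), so a doubling lay outside both. Flt1 allowed folds of 0.475 to 1.09 after proton and 0.744 to 1.70 after gamma radiation. For Kdr the fitted proton fold was 0.479, with an interval from 0.0773 to 2.97, and for Angpt1 the gamma fold was 2.22, with an interval from 0.397 to 12.5. The standard errors of the group were larger than usual, with a median of 0.24 against 0.11 over all genes for the proton slope and 0.23 against 0.11 for the gamma slope.

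**Figure D3:**
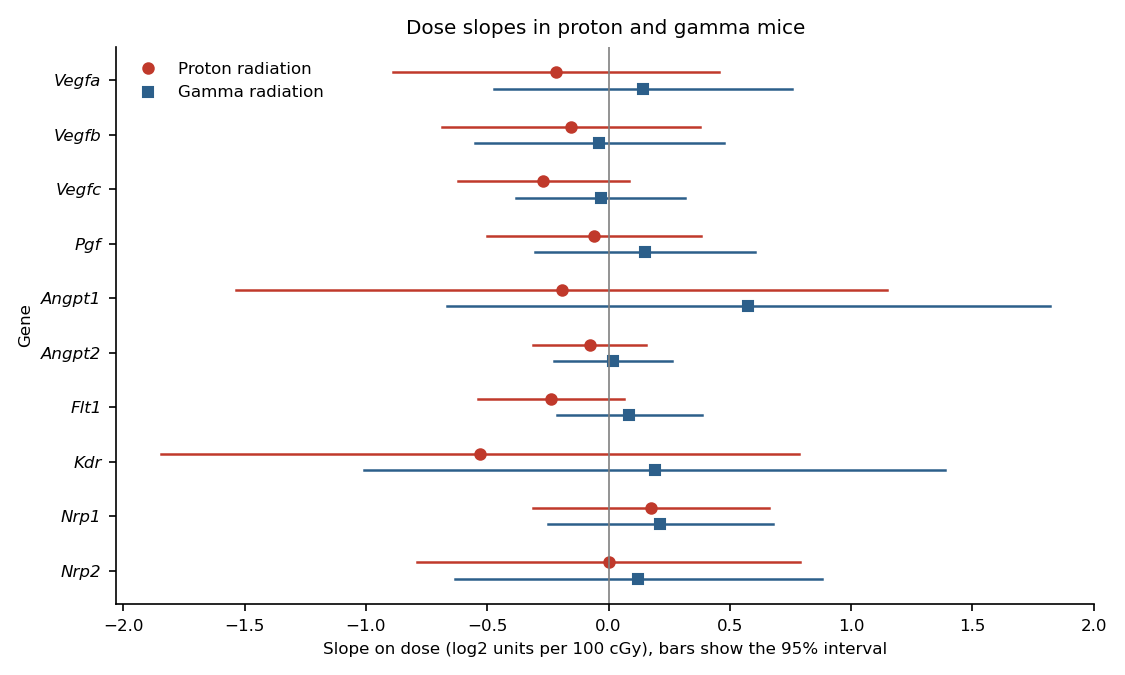
Slope on dose in log2 units per 100 cGy for each gene, with the 95% interval as a bar, in proton mice (circles) and gamma mice (squares). All 20 intervals cross 0, and those of Kdr and Angpt1 are the widest.

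A second test used ranks only. The Spearman correlation of the counts of 10 mice with their doses was set against every reordering of the doses, which gave an exact one-sided permutation p. At an adjusted p of 0.1 it called 0.198% of all genes rising and 0.0% falling after proton radiation, and 1.9% rising and 0.411% falling after gamma radiation, and 0 of the 10 genes in either. Kdr had rho = -0.75 with proton dose (exact permutation p = 0.00785, adjusted p = 0.833), and Flt1 had rho = -0.69 (exact permutation p = 0.0154, adjusted p = 0.833). Of all genes 5.47% had an unadjusted p under 0.05 for a fall after proton radiation, and neither gene passed the correction. Angpt1 had a gamma rho of 0.60 (exact permutation p = 0.0349, adjusted p = 0.289), in a direction where 14.5% of all genes had an unadjusted p under 0.05.

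The size of the Kdr slope depended on the mice and doses in the fit. With each single mouse left out in turn it stayed below 0, from -0.72 to -0.17. It was -0.63 without the proton mouse at 75 cGy (edgeR unadjusted p = 0.0393, adjusted p = 0.271) and -0.64 without that mouse and the gamma mouse at 100 cGy (edgeR unadjusted p = 0.0146, adjusted p = 0.154). Over 0 to 125 cGy, a range that includes the mouse at 75 cGy with 534 counts, it was 0.45 (adjusted p = 0.983), and the value of -0.17 was that without the proton mouse at 200 cGy. The Flt1 slope kept its sign in these fits, at -0.25, -0.25, -0.20 and -0.26, with an adjusted p of 0.216, 0.207, 0.983 and 0.943. With counts corrected for GC content and length the slopes were -0.60 for Kdr and -0.28 for Flt1.

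How protons compare with gamma rays was asked by contrasting each proton slope with the gamma slope of that gene. No gene of all 13124 was called (0.0%), 254 had an unadjusted p under 0.05, and of the 10 genes 0 did. The proton slope was the lower one for 10 of the 10, with a median difference of -0.22 against -0.0019 over all genes, of which 49.3% had a difference above 0. With the brown fat score as a covariate it was the lower one for 7 of 10. With the endothelial score, and over 0 to 125 cGy, it was so for 9 of 10. Without the proton mouse at the highest dose, the difference was above 0 for Vegfb, at 0.13, and for Nrp2, at 0.18. With any single mouse left out, the difference stayed below 0 for Vegfa, Vegfc, Pgf, Angpt1, Angpt2, Flt1 and Kdr. The 10 genes vary together in the same mice, so these counts are not separate observations. Flt1 had the smallest p, at a difference of -0.32 ± 0.20 (SE; 95% interval -0.74 to 0.10; edgeR unadjusted p = 0.126). With a dose block in that fit, 0 of the 10 were again called. For rank correlations, an exact permutation test that swapped the proton and gamma mouse within doses gave unadjusted p-values from 0.0195 for Angpt1 and 0.0234 for Vegfa up to 0.996 for Nrp1, where 0.00195 is the smallest possible, and it was added after the data had been seen.

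No level was called different between proton and gamma mice of the same dose. The edgeR test with dose as a block called 0 of the 10 genes and 0.0% of all genes, with 0 and 1032 at an unadjusted p under 0.05. Nrp1 was the farthest from equality, with a log2 difference of 0.26 ± 0.24 (proton over gamma) (SE; 95% interval -0.27 to 0.79; adjusted p = 0.807). The estimate for Vegfa was 0.18 ± 0.23 (-0.32 to 0.68; adjusted p = 0.854) and turned to -0.02 without the proton mouse at 75 cGy. Of the 10 estimates 9 lay above 0 with all mice and 4 without that mouse. With dose as a linear term and no block, the estimate for Vegfa was 0.35 and that for Angpt1 0.56, and 0 of the 10 were called.

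Much of the variation of the group lay in 2 mice that also stood apart in markers of other tissues. The proton mouse at 75 cGy was the highest of 20 for 7 of the 10 genes, and the gamma mouse at 100 cGy the second highest for 5. Relative to the median of the other 9 proton mice, the mouse at 75 cGy had 10.8 times the count of Angpt1, 9.54 times that of Kdr, 4.32 times that of Nrp2, 4.08 times that of Vegfa, 2.88 times that of Vegfb, 1.76 times that of Flt1 and 1.69 times that of Nrp1. Vegfc stood at 1.06, Angpt2 at 0.76 and Pgf at 0.64 of that median. The gamma mouse at 100 cGy had its largest ratios in the same 3 genes, with 3.39 times the median of the other 9 gamma mice for Angpt1, 3.17 for Kdr, 2.67 for Nrp2, 1.70 for Nrp1, 1.64 for Vegfb and 1.62 for Vegfa, while Flt1 stood at 1.07.

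Markers of fat stood out in both mice. The summed level of 8 brown fat markers was 2534 CPM in the proton mouse and 989 in the gamma mouse, against 160 to 713 in the other 18. Ucp1, the uncoupling protein of brown fat, had 7108 and 2478 counts, and Cidea, a lipid droplet protein, 4527 and 1748. The sum of 6 white fat markers was 6481 and 2485 CPM against 486 to 1631, with Adipoq, the hormone adiponectin, at 3974 and 1434 counts. In the proton mouse 7 of 8 brown fat and 6 of 6 white fat markers exceeded all 18 other mice. Smooth muscle markers, the defining genes of the aortic wall, summed to 27459 and 40606 CPM against 45631 to 55125, and 7 of 8 were below all 18 other mice in the proton mouse.

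The proton mouse alone also carried markers of heart muscle. Their sum was 3131 CPM in it, against 13 in the gamma mouse at 100 cGy and 14 to 58 in the other 18. Nppa, a hormone of atrial muscle, had 2312 counts there and at most 4 in any other proton mouse, and Myh6, a heart myosin, had 6721 counts against at most 105. All 6 of the heart markers exceeded the 18 other mice. The sum of 15 endothelial markers was 1476 and 1280 CPM in the 2 mice, inside the 604 to 1585 of the others. In the proton mouse 6 of the 15 exceeded all 18 other mice and 1, Erg, was below them. Cdh5, the cadherin of endothelial junctions, had 935 counts (2.68 times the median of the other proton mice), and Robo4, a receptor of endothelial cells, 141 (6.13 times). The list went both ways, as Erg stood at 0.80, Pecam1 at 0.81 and Vwf at 1.01 of that median. Macrophage markers summed to 465 and 491 CPM against 76 to 469, red blood cell markers to 1561 and 2278 against 22 to 1836, fibroblast markers to 6643 and 9510 against 4217 to 10106, and lymphatic endothelial markers to 79 and 65 against 23 to 74. Skeletal muscle markers summed to 72 and 13, against 11 to 24. Of these 6 markers only Ckm, at 404 counts, exceeded all 18 other mice in the proton mouse. The others did not, with 19 counts of Tnnt3, 11 of Acta1, 1 of Myh1 and 0 of Myh2 and Myh4. The part of these tissues in the levels of the group was not tested apart from the relations given next.

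**Figure D4:**
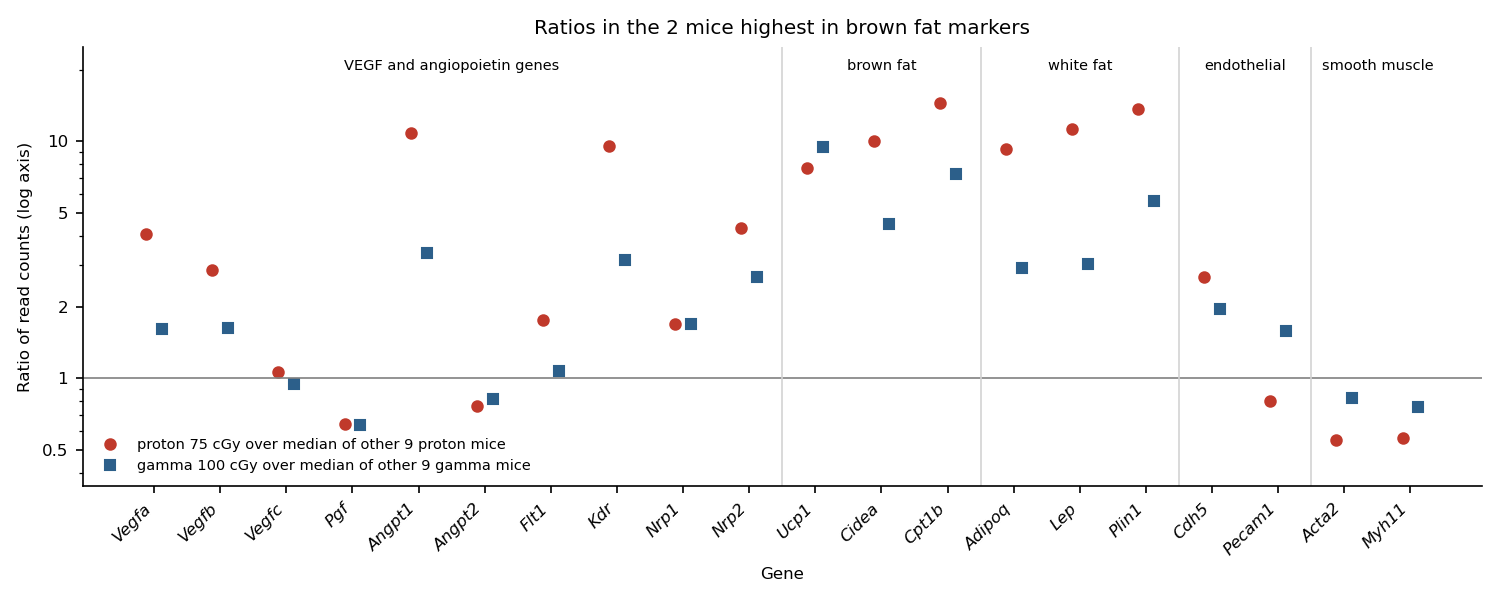
Ratio of the count in the proton mouse at 75 cGy (circles) and in the gamma mouse at 100 cGy (squares) to the median of the other 9 mice of its type (log axis), for the 10 genes and for markers of other cells. Angpt1 and Kdr, at 10.8 and 9.54 in the proton mouse, lie in the range of the fat markers, while Vegfc, Pgf and Angpt2 stay near or below 1.

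Across all 20 mice the levels of most of the group went with fat markers. A score for each cell type was taken as the mean over its markers of standardised log2 levels, and 60 relations were computed, of which 31 had an adjusted p of at most 0.1 by 100000 permutations. Vegfa correlated with the brown fat score at r = 0.89 (permutation p = 1e-05, the smallest possible, adjusted p = 6.67e-05) and rho = 0.79 (permutation p = 5e-05, adjusted p = 0.0006). Without the 2 mice farthest from the median score, the same that stood apart, r was 0.71. Nrp2 followed the same score at r = 0.92 (permutation p = 1e-05) and rho = 0.82 (permutation p = 4e-05), with r = 0.77 without those mice. Kdr went with the white fat score at r = 0.92 (permutation p = 1e-05) and rho = 0.81 (permutation p = 4e-05), with r = 0.74 without them. Vegfb and Angpt1 had r = 0.88 and r = 0.89 with the white fat score, which fell to 0.55 and 0.61. With the brown fat score, Kdr had r = 0.76 and only 0.30 without the 2 mice, so that relation rested on them. Vegfc, Pgf and Angpt2 had r of 0.04, -0.32 and -0.35 with the brown fat score, and none of the 3 passed the correction.

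Nrp1 had its highest correlations with endothelial, macrophage and smooth muscle markers. It correlated with the endothelial score at r = 0.89 (permutation p = 1e-05) and rho = 0.78 (permutation p = 0.00016), and with the macrophage score at r = 0.86 (permutation p = 1e-05) and rho = 0.80 (permutation p = 6e-05). Both relations were nearly as large without the 2 mice farthest from each score's median, at r = 0.87 and 0.85. With the smooth muscle score Nrp1 had r = -0.78 and rho = -0.92 (permutation p = 1e-05 for both), and r = -0.90 without the 2 mice farthest from the median. Within the proton mice these 3 values were 0.86, 0.79 and -0.79, and within the gamma mice 0.92, 0.89 and -0.89. Nrp1 also went with the brown fat score, at r = 0.68 (permutation p = 0.00061, adjusted p = 0.00244) and rho = 0.69 (permutation p = 0.00103), and at 0.59 without the 2 mice farthest from the median (adjusted p = 0.0581). Angpt1 and Nrp2 passed the correction with the endothelial score as well, at r = 0.56 (adjusted p = 0.0158) and 0.52 (adjusted p = 0.0189). So did Vegfa and Vegfb, both at r = 0.44 (adjusted p = 0.0789 and 0.0791). Without the 2 mice highest in brown fat markers, r was 0.38 for Angpt1, 0.33 for Nrp2, 0.13 for Vegfa and 0.08 for Vegfb, and none of them passed. Angpt2 was the only one of the 10 with a positive smooth muscle relation past the correction, at r = 0.50 (permutation p = 0.017, adjusted p = 0.0418) and rho = 0.52 (permutation p = 0.0192), and at 0.41 without the 2 mice it no longer passed. With the endothelial score the receptors had r = -0.11 (Flt1) and 0.24 (Kdr), neither past the correction. Without the 2 mice highest in brown fat markers these were -0.57 (permutation p = 0.0147, adjusted p = 0.0679) and -0.26 (adjusted p = 0.482), so the value for Flt1 then passed with a negative sign. The scores share the 20 libraries with the genes and are related to each other, and what ties the genes to them was not tested.

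**Figure D5:**
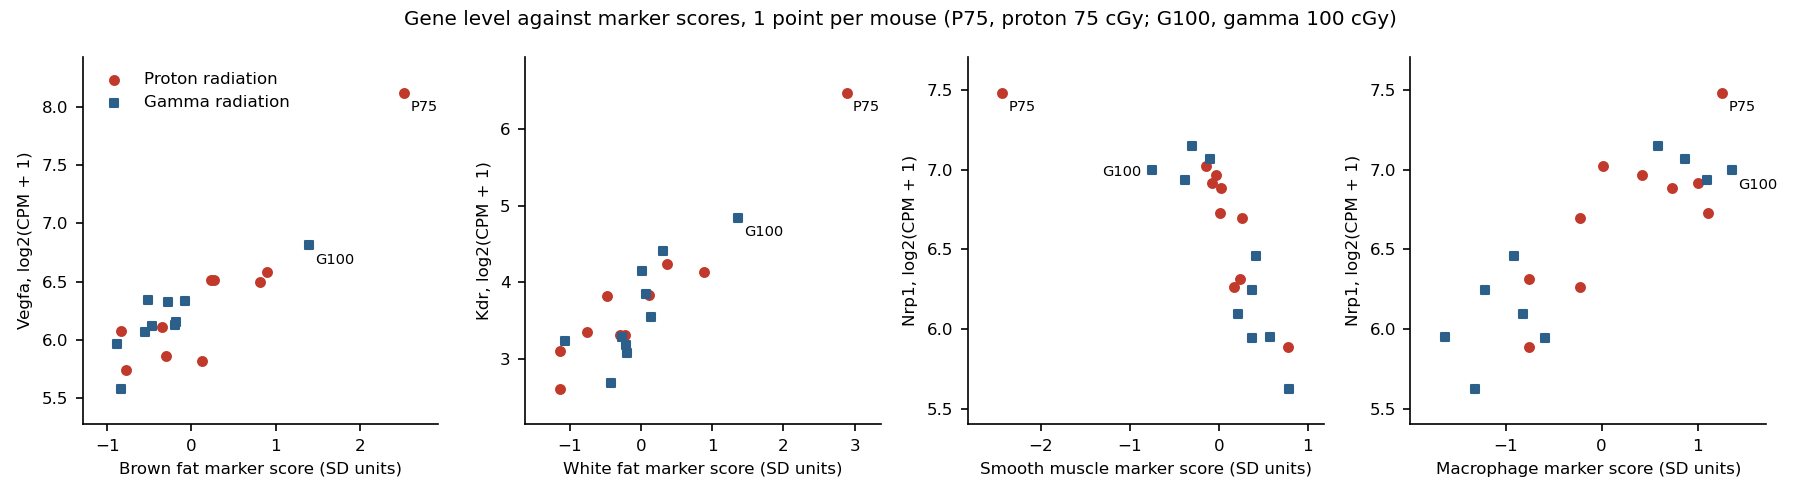
Level as log2(CPM + 1) against marker scores in SD units, 1 point per mouse, for Vegfa with brown fat, Kdr with white fat, and Nrp1 with smooth muscle and with macrophages. The proton mouse at 75 cGy (P75) and the gamma mouse at 100 cGy (G100) extend the first 2 relations, whereas the relation of Nrp1 to smooth muscle (r = -0.78) runs through all mice.

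The genes whose levels were most like those of the group differed between its members. Over 20 mice and the up to 9817 genes that averaged 50 counts or more, the closest to Vegfa were Cd36, a fatty acid transporter, at r = 0.96, Etfb of the mitochondrial electron transfer and Cdo1, a cysteine dioxygenase, both at 0.95. Cdo1 was also the closest to Angpt1, at 0.96, followed by Amy1 at 0.96 and Aldh6a1 at 0.95. Among the closest to Vegfb were Ogdh, of the citric acid cycle, and 1300001I01Rik, both at 0.97, and among the closest to Nrp2 were Fam73b at 0.98 and D10Jhu81e at 0.97. Kdr was most like Itga6, an integrin of endothelial and other cells, at 0.95, Tecr at 0.93 and Slc2a4, the insulin-responsive glucose transporter, at 0.92. Without the 2 mice that stood apart these values were lower, for example 0.89 for Cd36 and 0.84 for Itga6. Flt1 was most like Slc1a5 at 0.90, Eltd1 at 0.89 and Pde2a at 0.89. Nrp1 was most like Kctd12 at 0.95, Adh1 at 0.95 and Heph at 0.94, and without the 2 mice these stood at 0.96, 0.93 and 0.93. Vegfc was nearest to Spock2, Gsn and Gbp2 (0.79, 0.76 and 0.75), Pgf to Abr, Phactr1 and Amt (0.75, 0.74 and 0.72) and Angpt2 to Spg20, Btc and Rab33b (0.76, 0.75 and 0.74). These are among the highest of many correlations, and none was tested.

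Among the 10 genes, the receptors varied together with and without the 2 mice that stood apart. Flt1 and Kdr had r = 0.88 over 20 mice and 0.85 over the 18 without those that stood apart. Vegfa and Nrp2 had 0.92 and 0.78, Vegfa and Kdr 0.87 and 0.59, Vegfa and Flt1 0.70 and 0.39, and Angpt1 and Nrp2 0.93 and 0.65. Vegfb and Kdr, at 0.81, fell to 0.27. The level of Kdr relative to Flt1 per exon length had a median of 0.43 in proton and 0.441 in gamma mice, with the highest values, 2.02 and 1.05, in the mice at proton 75 cGy and gamma 100 cGy. Angpt2 exceeded Angpt1 23.4-fold per exon length at the median in proton and 22.0-fold in gamma mice, but 1.96-fold and 5.77-fold in those 2 mice. None of 8 trends of such ratios with dose passed the correction, the smallest being Kdr over Flt1 in proton mice (rho = -0.60, exact permutation p = 0.0734, adjusted p = 0.587).

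The wider pathway was read from 93 listed genes, of which 92 were in the table and 88 were tested. After proton radiation 0 of the 88 were called, beside 1.6% of all genes rising and 0.16% falling. After gamma radiation 5 rose and 3 fell, which are 5.68% and 3.41% of the 88 against 5.44% and 2.21% of all genes, and thus near the background. Among 19 further ligands, receptors and partners, Plxna2, a semaphorin receptor chain, rose from 144 counts at 0 cGy to 241 at 200 cGy (slope 0.51 ± 0.12 SE, adjusted p = 0.0264). Sema3f, a secreted semaphorin that binds Nrp2, fell from 1284 to 897 (-0.42 ± 0.10, adjusted p = 0.0324). Of 28 genes of signalling downstream of the receptors, Plcg1, a phospholipase recruited by Kdr, rose from 443 to 576 (0.28 ± 0.06, adjusted p = 0.0161), and Akt1, a survival kinase, and Shb, an adaptor of Kdr, fell with slopes of -0.20 ± 0.05 (adjusted p = 0.0441) and -0.24 ± 0.07 (adjusted p = 0.0718).

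Of 9 hypoxia regulators 2 rose after gamma radiation. Hif3a, which has inhibitory forms, had 12 counts at 0 cGy, 61 at 125 cGy and 44 at 200 cGy (slope 1.30 ± 0.34 SE, adjusted p = 0.0423), and Hif1an, which blocks HIF activity, had a slope of 0.25 ± 0.08 (adjusted p = 0.0774). In proton mice Hif3a counts ran from 5 to 34, with 10 at 0 cGy and 5 at 200 cGy, and the difference between types was not called. Adamts1, a protease that can bind Vegfa, rose from 684 to 1709 counts (0.59 ± 0.17, adjusted p = 0.0566) and was the single one of 11 inhibitors of angiogenesis called. None of 12 genes that VEGF induces in endothelial cells and none of 9 that hypoxia induces was called after either type by edgeR at an adjusted p of 0.1. The difference between types was called for 0 of the 88. Of the 8 genes called after gamma radiation, only Plcg1 was called when counts were corrected for GC content and length or when 0 to 125 cGy alone was fitted. Without the gamma mouse at 150 cGy 2 of the 8 were called (Plcg1 and Plxna2). Without that at 200 cGy only Plcg1 of the 8 was called, beside P4ha1, which was not among them. Tek, the receptor of the angiopoietins, had slopes of 0.47 ± 0.39 (SE) after proton and 0.25 ± 0.36 after gamma radiation (edgeR adjusted p = 0.693 and 0.816), and was chosen after its values had been seen.

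Genes of the p53 response were followed for comparison. The paper had already listed the genes named next as responsive to both radiation types in these same libraries. Their rise was thus known beforehand and is not an independent check on the dose labels. All 5 of Cdkn1a, Mdm2, Aen, Ccng1 and Bax rose with dose after both types, although Mdm2 was not called after proton radiation when 0 to 125 cGy alone was fitted (edgeR adjusted p = 0.327). Cdkn1a counts were 345 at 0 cGy and 2777 at 200 cGy in proton mice, with a slope of 1.39 ± 0.22 (SE, adjusted p = 0.00518), and 366 and 2937 in gamma mice, with a slope of 1.60 ± 0.24 (adjusted p = 0.00214). Among markers of the cell types named above, only Myocd, a coactivator of smooth muscle genes, was called, in gamma mice (235 counts at 0 cGy, 734 at 200 cGy, slope 1.05 ± 0.26, adjusted p = 0.0357). The rise of Cdkn1a was seen in the same libraries in which the VEGF and angiopoietin genes gave 0 calls. As that rise was known beforehand, it is not an independent control for those calls.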

How the data were processed

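RNA of 20 mouse aortas was sequenced after selection of polyadenylated RNA, on a stranded protocol. The authors called bases with CASAVA 1.8.1, aligned reads to mm9 with STAR 2.5.2a and resampled libraries to a common depth with PORT, and the deposited values are whole-number sense read counts per gene (median total 6056776 per mouse). Resampling leaves the counting error of that depth in every value, so genes near 20 counts are measured coarsely.

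The 13124 genes averaging 5 counts or more were fitted with edgeR 4.0.16 in R 4.3.3 (TMM, robust quasi-likelihood, an intercept and a slope for each radiation type), with Benjamini-Hochberg adjustment over all of them and a threshold of 0.1. Proton and gamma mice were compared with dose as a block, because labels pair them by dose and not by animal. Trends were tested by exact permutation, and correlations by 100000 resamples on log2(CPM + 1), in scipy 1.17.1. Alternatives included DESeq2 1.42.0, other filters, GC correction, marker covariates and leaving out each mouse. Scripts were tested on simulated data. Genes named beside the group were p53 response genes and up to 4 called genes of each list per comparison. Also named were the 3 most alike genes (for Vegfb and Nrp2 not all are reported here) and markers of mice that stood apart. The members and lists were chosen with earlier results of these data known. The labels do not say that mice came from separate litters.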

Additional observations from a re-analysis of the deposited data

Results flagged for a closer look

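Among 20 sets of 10 mice (10 genes in each radiation type), 9 held a highest mouse whose gap to the next, as a share of the whole range, was above Dixon's 95% critical value for 10 values. The mice of a set received different doses, so a gap can come from dose as well. Chance alone also flags some sets, at a rate that was not worked out for these counts. The genes also vary together, so these are not 9 separate events.

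The proton mouse at 75 cGy stood apart in 5 genes. Its counts were 1684 for Vegfa (next highest proton mouse 575), 460 for Vegfb (177), 162 for Angpt1 (32), 534 for Kdr (108) and 246 for Nrp2 (76). The gamma mouse at 100 cGy stood apart in 3 genes, with 674 counts of Vegfa (next highest gamma mouse 485), 61 of Angpt1 (27) and 136 of Nrp2 (62). These are the 2 mice with the highest brown and white fat markers. The remaining case was Flt1 in the gamma mouse at 150 cGy, with 335 counts against 265 in the next.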

How the results depend on the processing

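None of the 10 genes was called in any of the 4 comparisons by edgeR, by DESeq2 or in any other setting tried. The smallest adjusted p was 0.154, for the proton slope of Kdr without the 2 mice highest in brown fat markers, where 2 of 10 genes had an unadjusted p under 0.05. Of 1268 alternative estimates, 117 had the other sign than the value reported, 65 of them with a mouse left out. With dose as a replicate block the slope difference was -0.37 for Vegfa and -0.71 for Kdr (0 called), and without the block 0 of 10 were called between types, so the block changed no call.

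Calls among the 88 pathway genes moved more. After proton radiation 0 became 3 with the brown fat score as a covariate (Plxna1, Sema3b, Sema3f), 2 with the endothelial score (Angpt4, Prkca) and 4 without the 2 mice (Apln, Mapkapk2, Prkca, Sema3c). With single mice left out it ranged from 0 to 2, with 2 without the proton mouse at 75 cGy (Mapkapk2, Prkca) and 2 without that at 125 cGy (Hif1an, Prkca). After gamma radiation 8 became 1 with GC correction, 1 over 0 to 125 cGy, 2 on log2(dose + 1), 13 with the brown fat score, 17 with the endothelial score, 13 from gamma mice alone and 15 without the 2 mice. With single mice left out it ranged from 2 (without the gamma mouse at 150 or at 200 cGy) to 12 (without the proton mouse at 75 cGy), and it was 5 without the gamma mouse at 5 cGy. Between types DESeq2 called 1 (Hspb1), and with mice left out the count was 0 to 1, with Hspb1 called without the proton mouse at 100 cGy. Of the correlations 31 passed the correction. Without the 2 mice farthest from the median score 16 did, all of them among the 31, and without the 2 mice highest in brown fat 17 did, 15 of them among the 31 and 2 (Flt1 with the endothelial and macrophage scores) not. The causes were not tested. With a minimum mean count of 50, Vegfc, Pgf and Angpt1 were not tested. A single mouse per dose and the low counts of Vegfc, Pgf and Angpt1 limit what could be detected. The settings without the 2 mice highest in brown fat markers, rank correlation, the settings of the pathway counts, the white fat, macrophage, fibroblast and smooth muscle scores, the ratios and the test of rank correlations between types were added after the data had been seen.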
